A study of Oscheius tipulae with 48 samples.

Results

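The 150 genes described here had their highest level in adult males of the nematode Oscheius tipulae and were also present in 1 library of young adults. They were chosen by their RPKM values, in which reads are scaled to the length of the gene and the size of the library, from the 14558 genes of the table. Values were averaged as log2(RPKM + 1) over 9 groups of libraries. These were embryos of 2 to 8 cells, of 8 to 64 cells and of 64 to 200 cells, L1 replicates 2 and 3, L2 to L4 larvae, young and mature adults together, males, dauer larvae and post-dauer mature adults. The male average was the highest of the 9 for 1710 genes, and 914 of these had at least 20 RPKM in both male libraries. Young adult replicate 2 held at least 5 RPKM of 744 of the 914, and the 150 with the largest margin of males over L2 to L4 are the members. The margin was 5.80 on the log2 scale for the last member and 5.79 for the first gene left out, so the edge is one of rank and not of kind. The 2 lowest members in young adult replicate 2 stood at 6.35 and 6.37 RPKM, above the floor of 5 RPKM, whereas the highest gene of those just under it stood at 4.99 RPKM.

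Adult males were hand-picked, 200 per library, from a him-1(sy527) mutant of strain CEW1, and no other group carried that mutation. Sex and genotype therefore cannot be told apart in these data. The other groups used were CEW1 whole worms: L1 to L4 larvae and young and mature adults grown on bacteria at 20 °C, dauer larvae from liquid culture, and L3, L4, young adult and mature adult worms recovered from dauer. Embryos of 9 stages from 2 to 200 cells completed the life cycle. Groups of worms held 2 libraries each, except L1 with 3. The titles call replicates biological and do not say whether they came from separate cultures, and p-values given here therefore reflect variation among libraries that may be technical in part. Each library is a pool of whole worms, in which fewer cells of a type and less RNA per cell cannot be told apart. The labels give no sex for the libraries other than males.

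As background, O. tipulae reproduces mainly as self-fertile hermaphrodites, with rare males. In its relative Caenorhabditis elegans, hermaphrodites make a limited number of sperm late in larval life and then switch to oocytes, whereas males make sperm throughout adult life. In C. elegans, transcripts enriched in males come largely from the germ line that makes sperm. The table names genes by ID only, so no member can be given a name, a role or a cell type here, and no sequence was used.

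The table summed to between 371389 and 860569 RPKM per library and gives no read counts, so depth is unknown. One feature of the libraries bears on every low value below. A set of 2949 genes, called silent genes here, each had a median under 0.5 RPKM over all 48 libraries. Members and the 150 male-peaking genes under the young adult floor, described below, were left out of it. The silent genes had medians of 1.35 to 5.25 RPKM in 5 libraries. Those were both dauer libraries and replicate 1 of post-dauer L3, L4 and young adults, with 5.25 RPKM in the last. In the other 43 libraries the median of silent genes was between 0 and 0.57 RPKM. Their 95th percentile was 19.3 and 23.4 RPKM in the male libraries and 7.78 RPKM in young adult replicate 2. It is therefore not a measure of background alone.

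Males held the members at a median of 128 and 153 RPKM in replicates 1 and 2, with 51.8 RPKM the lowest value. Members made up 10.5% and 10.9% of the RPKM sums of the male libraries. Of the 150, 103 averaged at least 100 RPKM in males and 10 at least 1000 RPKM. Their median stood at the 96.2nd and 96.6th percentile of all genes in these libraries. These levels were set by the choice of members and are a description.

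In young adults the 150 members were present in 1 library and nearly missing from the other. Their median was 22.6 RPKM in replicate 2, which the rule used as a floor, and 0 RPKM in replicate 1, where 88 members were listed at 0. The label of the group, on in young adults, therefore holds for 1 of 2 libraries. Replicate 2 was the higher for 149 of 150 members and at least 2-fold higher for 146, against 26.9% of the 11924 genes with at least 1 RPKM in either library. The median difference of replicate 2 minus replicate 1 was 4.26 on the log2 scale for members and 0.16 for those 11924 genes. Members had to reach the floor in replicate 2 and had no floor in replicate 1, so these counts describe the choice and test nothing.

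Mature adults, for which the rule set no floor, also had the members higher in replicate 2. The members' median was 1.16 RPKM in replicate 1 and 13.4 RPKM in replicate 2. At least 5 RPKM was reached by 23 members (15.3%) in replicate 1, against 39.5% of all genes there, and by 144 members (96.0%) in replicate 2, against 52.0% of all genes. Replicate 2 was at least 2-fold higher for 145 members and for 30.9% of 11001 genes. The level of silent genes was 0 RPKM in replicate 1 and 0.23 RPKM in replicate 2. Of the members, 73 exceeded the 95th percentile of silent genes in replicate 1, against 58.6% of all genes there. In replicate 2, 144 members did, against 51.7% of all genes. Members were thus lower in replicate 1 than in replicate 2, but not missing from it. Mature adult values entered the rule through the average with young adults. Replicate 2 also correlated at 0.98 over all genes with young adult replicate 2, where the floor was set. These counts are therefore a description.

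**Figure D1:**
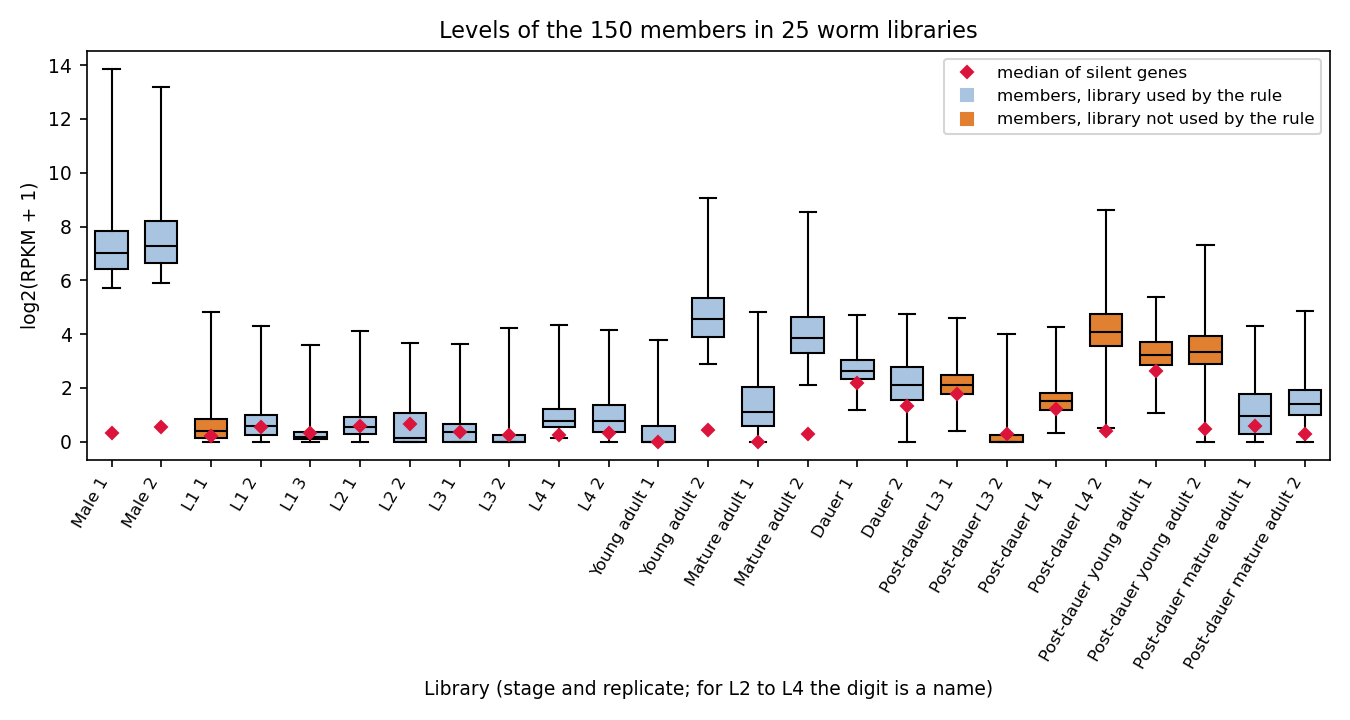
Box plots of log2(RPKM + 1) of the 150 members in the 2 male libraries and in 23 other worm libraries, with boxes from the lower to the upper quartile, lines at the median and whiskers to the lowest and highest member; orange boxes are libraries that the choice of members did not use, blue boxes those it used, and red diamonds mark the median of silent genes. Members had medians of 128 and 153 RPKM in males, 22.6 RPKM in young adult replicate 2, 15.9 RPKM in post-dauer L4 replicate 2 and 13.4 RPKM in mature adult replicate 2, and in replicate 1 of these 3 groups they had medians of 0 RPKM in young adults, 1.88 RPKM in post-dauer L4 and 1.16 RPKM in mature adults.

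The 3 post-dauer groups of L3, L4 and young adult were not used by the rule. In post-dauer L4 worms the members' median was 1.88 RPKM in replicate 1, beside 1.35 RPKM for silent genes, and 15.9 RPKM in replicate 2, beside 0.32 RPKM. The count at or above 5 RPKM was 8 (5.33%) in replicate 1, against 54.8% of all genes. In replicate 2 it was 143 (95.3%), against 56.0% of all genes. Replicate 2 was at least 2-fold higher for 142 members and for 13.0% of 13654 genes. In this group too the members were raised in 1 of 2 libraries.

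Post-dauer young adults were the only one of these groups whose libraries had similar medians, 8.42 RPKM in replicate 1 and 9.20 RPKM in replicate 2. Silent genes stood at 5.25 RPKM in replicate 1 and at 0.39 RPKM in replicate 2. The 95th percentile of silent genes was exceeded by 23 members and 22.9% of all genes in replicate 1 and by 113 members and 55.8% of all genes in replicate 2. Similar medians thus lay at different heights above the silent genes, and the part of that raised level in replicate 1 was not tested.

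Post-dauer L3 larvae showed the members at 3.26 RPKM in replicate 1, beside 2.41 RPKM for silent genes, and at 0 RPKM in replicate 2, beside 0.23 RPKM. Post-dauer mature adults, which the rule held only below males, had medians of 0.96 and 1.68 RPKM, beside 0.49 and 0.22 RPKM for silent genes. There 10 and 12 members (6.67% and 8.00%) were at or above 5 RPKM, against 55.5% and 54.1% of all genes. Both dauer libraries had higher medians of members, 5.24 and 3.34 RPKM, together with raised silent genes at 3.52 and 1.52 RPKM. In post-dauer L3 replicate 2, 106 members were listed at 0.

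**Figure D2:**
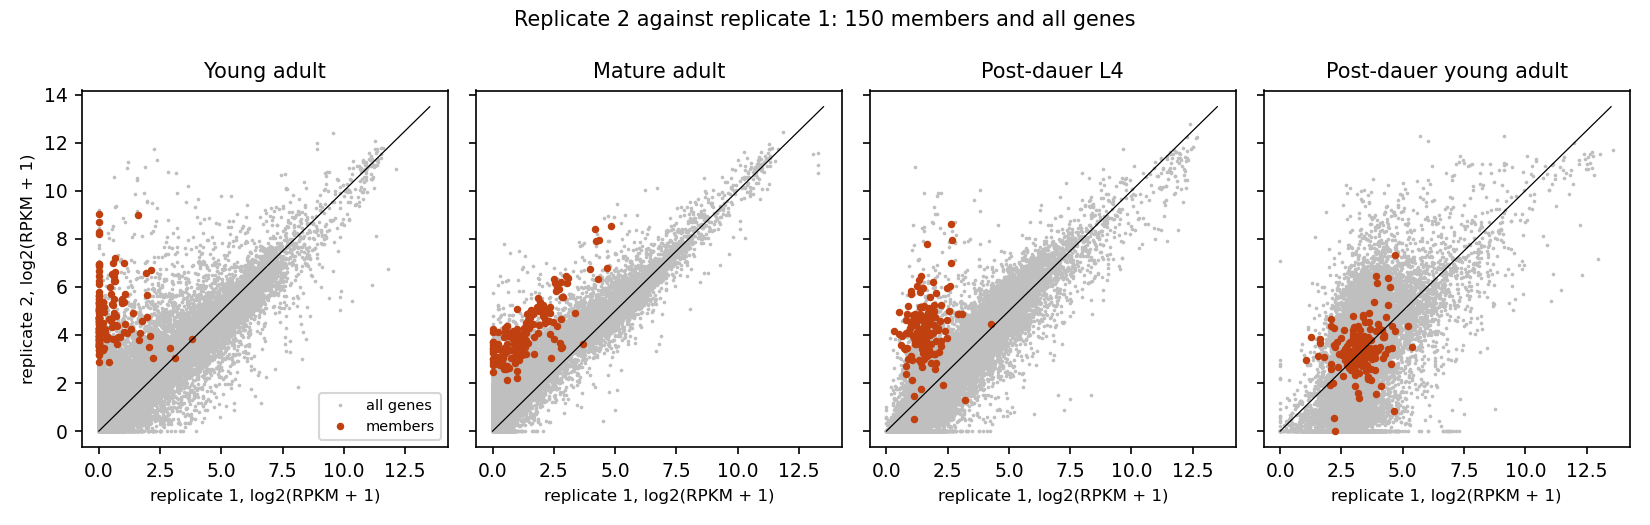
Scatter plots of log2(RPKM + 1) in replicate 2 (vertical) against replicate 1 (horizontal) for young adults, mature adults, post-dauer L4 and post-dauer young adults, with all 14558 genes in grey, the 150 members in red and the line of equal values. At least 142 members were 2-fold or more higher in replicate 2 in each of the first 3 groups, whereas in post-dauer young adults 79 were higher in replicate 2 and 71 in replicate 1.

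In L4 larvae, part of the reference of the margin, the members were low. Low levels in L2 to L4 were set by the choice of members, so the counts here are a description. The median was 0.69 and 0.70 RPKM in the L4 libraries and between 0 and 0.48 RPKM in the 4 libraries of L2 and L3. At least 5 RPKM was reached by 6 and 7 members in L4 (4.00% and 4.67%), against 57.9% and 58.1% of all genes. In each L2 and L3 library 1 member reached it, against 56.4% to 59.1% of all genes. The 95th percentile of silent genes was exceeded by 9 and 7 members in L4, against 59.7% and 58.2% of all genes. Oti_g06221 was at 17.2 and 17.0 RPKM in L4, against 0 to 3.92 RPKM in L2 and L3, and Oti_g06135 was at 11 and 12.6 RPKM in L4, against 0 to 1.84 RPKM. In these direct larvae the silent genes had medians of 0.19 to 0.57 RPKM.

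Levels were also expressed as a share of those in males. For young adult replicate 2 both levels were used by the rule, whose floors cut off low shares, so the values are a description. The level there was 15.4% of the mean male level at the median member, with quartiles of 13.1% and 18.4%. For 118 members this share lay between 10% and 20%, for 13 below 10% and for 19 at 20% or above. In mature adult replicate 2 the median share was 9.59% (quartiles 7.66% and 11.1%), in post-dauer L4 replicate 2 it was 11.3% (8.01% and 14.6%) and in post-dauer young adult replicate 2 it was 5.86% (3.76% and 8.20%). In mature adult replicate 1 it was 0.80%, and in the post-dauer mature adults it was 0.53% and 0.98%.

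The order of members by level was also alike in part between these libraries. Across the 150 members, log2 levels correlated at r = 0.95 between young adult replicate 2 and mature adult replicate 2 (Spearman's rho = 0.90). Between post-dauer L4 replicate 2 and post-dauer young adult replicate 2, which the rule did not use, r was 0.78 (rho = 0.74). Over all genes the same pairs of libraries correlated at 0.98 and 0.93. Young adult replicate 2 and post-dauer young adult replicate 2 were less alike, at r = 0.72 (rho = 0.65), against 0.94 over all genes. With the male libraries r was 0.80 and 0.84 for young adult replicate 2. For replicate 2 of post-dauer L4 and post-dauer young adults it was 0.53 to 0.59. Genes are not independent replicates and the libraries share gene lengths and processing, so these values describe the libraries only.

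Young adult replicate 2 was the highest library outside males for 110 members and post-dauer L4 replicate 2 for 30. Post-dauer young adult replicate 1, with its raised silent genes, was highest for 7. Young adult replicate 2 stood above mature adult replicate 2 for 144 members, with a median ratio of 1.61 (quartiles 1.37 and 1.95). Post-dauer L4 replicate 2 stood above post-dauer young adult replicate 2 for 136 members, with a median ratio of 1.88 (quartiles 1.41 and 2.49) over the 149 members not listed at 0. The rule set a floor in young adult replicate 2 and none in the mature adults, so the first ratio and the count of 110 lean towards that library by construction. In replicate 1 the medians ran the other way, with 0 RPKM in young adults and 1.16 RPKM in mature adults, and 1.88 RPKM in post-dauer L4 and 8.42 RPKM in post-dauer young adults, beside raised silent genes in both of these post-dauer libraries. Neither of these orders, young above mature adults and post-dauer L4 above post-dauer young adults, held in both replicates.

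Oti_g06221 combined the highest mean in mature adults with the highest level that both post-dauer young adult libraries reached. Its level was 2490 and 3925 RPKM in males, 0 and 527 RPKM in the young adult libraries, and 27.3 and 367 RPKM in mature adults. In post-dauer worms it was at 8.92 and 0 RPKM in L3, 5.21 and 387 RPKM in L4, 24.7 and 160 RPKM in young adults and 3.28 and 24.0 RPKM in mature adults. The 20 embryo libraries held at most 2.53 RPKM of it. Thus replicate 2 exceeded replicate 1 in young and mature adults, post-dauer L4 and both post-dauer adult groups, while the 2 libraries of directly grown L4 larvae, given above, were close to each other.

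Oti_g06135 and Oti_g07371 were also higher in replicate 2 of the adult groups. Oti_g06135 was at 2287 and 2825 RPKM in males, 2.05 and 513 RPKM in young adults, 17.2 and 343 RPKM in mature adults, and in post-dauer worms it was at 5.44 and 248 RPKM in L4 and 20.1 and 82.4 RPKM in young adults. Oti_g07371 was at 2908 and 3951 RPKM in males, 0 and 414 RPKM in young adults, 17.4 and 241 RPKM in mature adults, and in post-dauer worms it was at 5.16 and 126 RPKM in L4 and 21.3 and 62.0 RPKM in young adults. Oti_g05002, the second member by margin, was at 3422 and 3633 RPKM in males, 0 and 297 RPKM in young adults and 24.1 and 109 RPKM in mature adults. Its values in post-dauer mature adults, 6.69 and 27.9 RPKM, were above the members' medians of 0.96 and 1.68 RPKM there.

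A pair of members did not keep the common share. Oti_g03534, first by margin (12.34 on the log2 scale), was the most abundant member in males at 14681 and 9368 RPKM, but was at 2.94 and 25.5 RPKM in young adults and 5.90 and 10.1 RPKM in mature adults. Its level in young adult replicate 2 was 0.21% of its male mean, and it was at 1.45 RPKM in post-dauer L4 replicate 2 and 0.77 RPKM in post-dauer young adult replicate 2. Oti_g04188 was at 3027 and 2443 RPKM in males and at 7.57 and 7.28 RPKM in young adults, 0.27% of the male mean. It also stood at 11.3 to 19.2 RPKM in L2 to L4 larvae and at 11.9 to 25.1 RPKM in dauer, and reached 40.5 RPKM in post-dauer young adult replicate 1, so outside males it had a low level in every worm library and was not higher in replicate 2 of the young or mature adults. These 2 members were singled out after their values were seen, as those with a share under 1%.

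**Figure D3:**
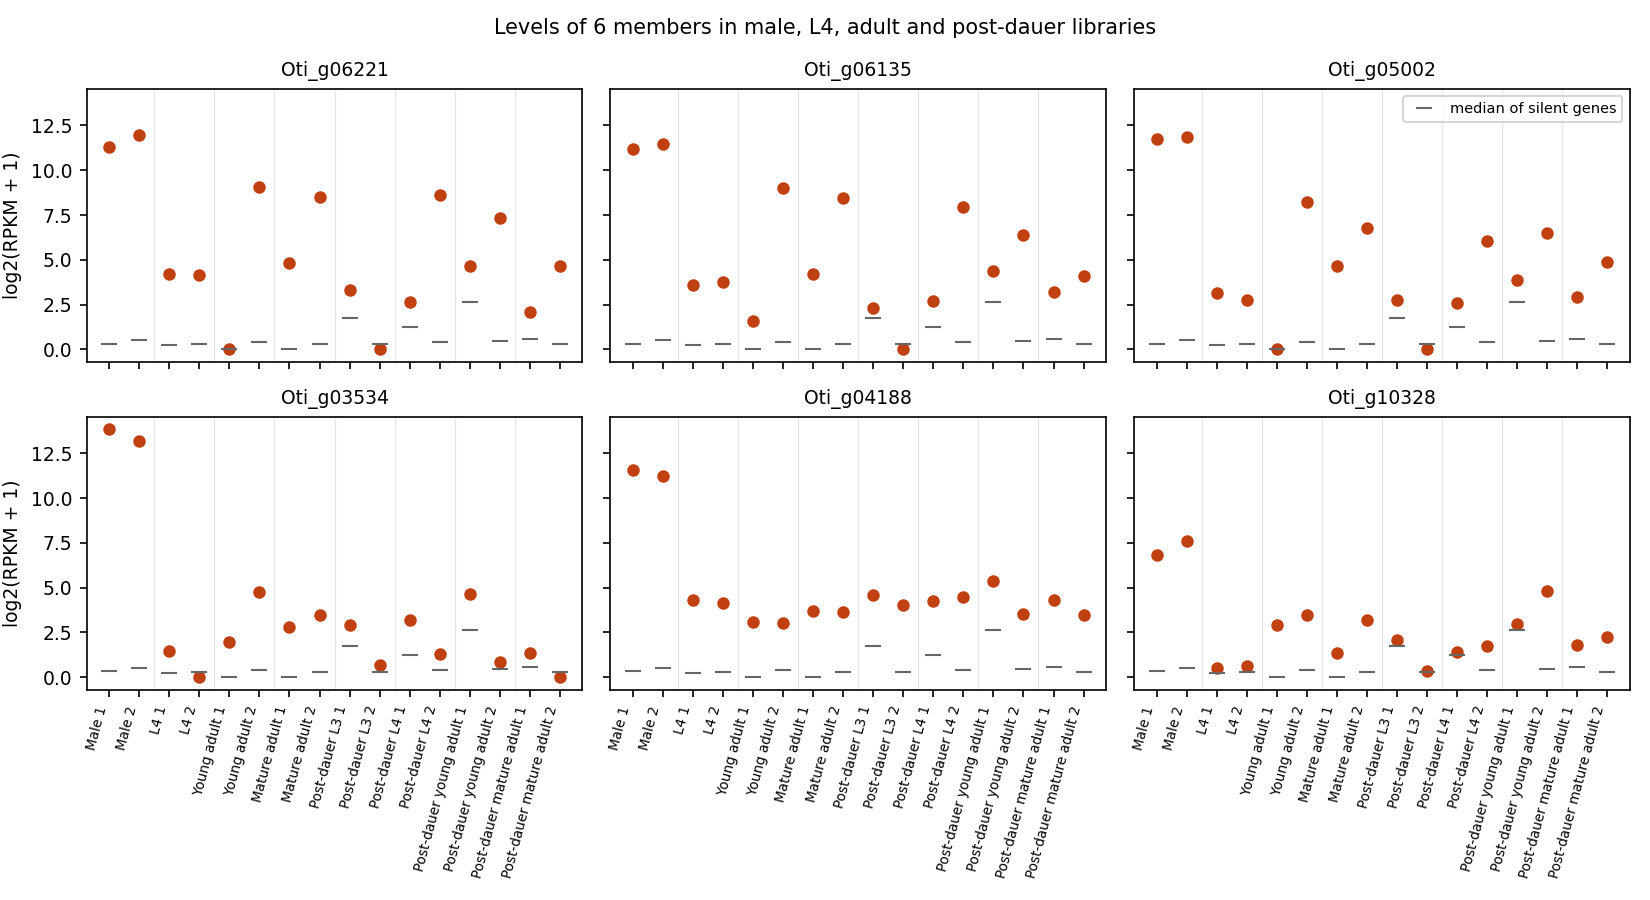
Levels as log2(RPKM + 1) of 6 members in male, L4, young adult, mature adult and post-dauer libraries (red points, 1 per library), with grey dashes at the median of silent genes of the library. Oti_g06221, Oti_g06135 and Oti_g05002 were higher in replicate 2 than in replicate 1 of young, mature and post-dauer adults. In post-dauer mature adult replicate 2 they were at only 23.95, 16.25 and 27.91 RPKM. Oti_g03534 and Oti_g04188 were below 1% of their male mean in young adult replicate 2. Oti_g10328 was highest outside males in embryos, which the plot does not show.

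Embryos held few of the members. All 20 embryo libraries entered the rule, which held each embryo average below that of males, so these counts are a description. The members' median was between 0 and 0.34 RPKM in the 20 embryo libraries, with 3 to 12 members at or above 5 RPKM per library (2.00% to 8.00%), against 29.2% to 43.1% of all genes. For 73 members every embryo library was under 1 RPKM. Over the 7 libraries of 2 to 8 cells, 7 members had a median of at least 5 RPKM, 4.67% of members against 33.5% of all genes.

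The highest of these was Oti_g10328, at 19.4 to 79.7 RPKM with a median of 38.5 RPKM in 2 to 8 cell embryos. It was at 110 and 191 RPKM in males, 6.52 and 10.1 RPKM in young adults and 1.55 and 8.19 RPKM in mature adults. It stayed at 15.0 to 35.5 RPKM in the 4 libraries of 64 to 200 cells, and was at 0.19 to 1.5 RPKM in the L2 to L4 larvae. Oti_g08433, the second, was at 2.84 to 17.7 RPKM with a median of 11.3 RPKM in 2 to 8 cell embryos. It was at 133 and 264 RPKM in males, 0 and 40.2 RPKM in young adults and 0 and 18.1 RPKM in mature adults. Oti_g10328 thus had embryo levels above those of young and mature adults and below those of males, and Oti_g08433 followed the common pattern of replicate 2 in adults.

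The post-dauer groups that the rule did not use allowed tests, although the rule did use the same stages of directly grown worms. Levels as log2(RPKM + 1) of 6 libraries of post-dauer L3, L4 and young adults were fitted with limma, a linear model with moderated variances, over 14232 genes, all 150 members among them. Calls needed a p under 0.05 after Benjamini-Hochberg adjustment over all genes, together with a 2-fold difference or more. Between post-dauer L4 and post-dauer L3, limma called 0 members higher and 0 lower, with 0% of all genes called in either direction. At an unadjusted p under 0.05 limma gave 12 members, all higher in post-dauer L4, and 771 of all genes. The smallest adjusted p of a member was 0.619.

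For post-dauer L4 over post-dauer L3 the members' median log2 change was 1.75, against -0.09 for all genes tested, with a median standard error of 1.04 for members. Both libraries of post-dauer L4 exceeded both of post-dauer L3 for 23 members (15.3%), against 16.9% of all genes, and the reverse held for 0 members, against 18.5% of all genes. With each library's median of silent genes subtracted, 39 members (26.0%) were higher without overlap, against 18.6% of all genes. Oti_g06135 had the largest change among members whose groups did not overlap, at 5.44 and 248 RPKM in post-dauer L4 against 3.90 and 0 RPKM in post-dauer L3; its log2 change was 4.18 ± 1.81 (SE, limma adjusted p = 0.952). Oti_g08190 followed at 1.91 and 35.7 RPKM in post-dauer L4 against 1.12 and 0 RPKM in post-dauer L3; its log2 change was 2.83 ± 1.23 (SE, limma adjusted p = 0.906). The members' median change was 3.10 without post-dauer L4 replicate 1 and 0.40 without its replicate 2, and was 2.63 without post-dauer L3 replicate 1 and 0.78 without its replicate 2.

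Post-dauer young adults against post-dauer L4 gave 0 members called by limma in either direction, with 0% of all genes called. At an unadjusted p under 0.05 there were 1 member and 204 genes. The median log2 change of members was 0.45, against 0.20 for all genes. Without overlap, 7 members (4.67%) were higher in post-dauer young adults, against 12.5% of all genes, and 0 were lower, against 6.13%. Oti_g10328 was at 6.82 and 26.6 RPKM in post-dauer young adults against 1.68 and 2.33 RPKM in post-dauer L4, a log2 change of 2.30 ± 0.88 (SE, limma adjusted p = 0.973). Oti_g00594 was at 20.1 and 37.2 RPKM in post-dauer young adults against 4.63 and 13.6 RPKM in post-dauer L4, a log2 change of 1.65 ± 0.78 (SE, limma adjusted p = 0.973). The members' median change was -0.91 without post-dauer L4 replicate 1 and 1.79 without replicate 2, so leaving out replicate 1 turned its direction.

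A comparison of post-dauer young adults with post-dauer L3 was added after the values were seen, and shares its libraries with the other 2 comparisons. Members were chosen as present in directly grown young adults and low in directly grown L2 to L4 larvae. The direction after dauer may therefore follow in part from the choice, and the counts without overlap are a description. Both post-dauer young adult libraries exceeded both post-dauer L3 libraries for 135 members (90.0%), against 13.3% of all genes, and 0 members were lower without overlap, against 9.09% of all genes. With the median of silent genes subtracted the count was 110 members (73.3%), against 10.3% of all genes. The median log2 change was 2.15 for members and 0.13 for all genes, and all 150 changes were positive. Limma nevertheless called 0 members and 0% of all genes in this comparison, with 49 members and 320 genes at an unadjusted p under 0.05. Oti_g06221 was at 24.7 and 160 RPKM in post-dauer young adults against 8.92 and 0 RPKM in post-dauer L3; its log2 change was 4.35 ± 2.2 (SE, limma adjusted p = 1.00). Oti_g06135 was at 20.1 and 82.4 RPKM in post-dauer young adults against 3.90 and 0 RPKM in post-dauer L3; its log2 change was 4.24 ± 1.81 (SE, limma adjusted p = 1.00). Without post-dauer L3 replicate 2 the members' median change was 1.27, and without replicate 1 it was 3.13. A p that misses the threshold with 2 libraries per group does not show that the stages are alike.

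Members were set beside the 150 genes of largest margin among the 170 that met both male criteria but were under 5 RPKM in young adult replicate 2; 29 of these had a margin at least as large as the smallest of the members. The members' male mean had a median of 140 RPKM, against 32.8 RPKM for the others. The level in post-dauer L4 replicate 2, which the rule did not use, was 15.9 RPKM at the median for members and 2.54 RPKM for the others. As a share of males that was 11.3% for members (quartiles 8.01% and 14.6%) and 8.84% for the others (0.76% and 13.9%). In post-dauer young adult replicate 2 the shares were 5.86% for members and 5.84% for the others (quartiles 0.87% and 9.67%).

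In replicate 2 of post-dauer L4 and post-dauer young adults the lists thus differed less at the median relative to males than in RPKM. The other list had lower shares at the lower quartile there. In young adult replicate 2, where the rule separated them, the median was 22.6 RPKM for members and 3.58 RPKM for the others, and 25 of the others were under 0.5 RPKM. In post-dauer young adult replicate 1 the members had the lower share, 5.74% against 17.8% for the others, with silent genes at 5.25 RPKM in that library. Members also had the lower share in post-dauer L4 replicate 1, 1.12% against 4.51%, where the medians were 1.88 and 1.59 RPKM and silent genes stood at 1.35 RPKM. The members' share was lower in post-dauer mature adults as well, at 0.53% against 1.19% in replicate 1 and 0.98% against 1.07% in replicate 2. Silent genes stood at 0.49 and 0.22 RPKM there. No test was made between the lists.

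**Figure D4:**
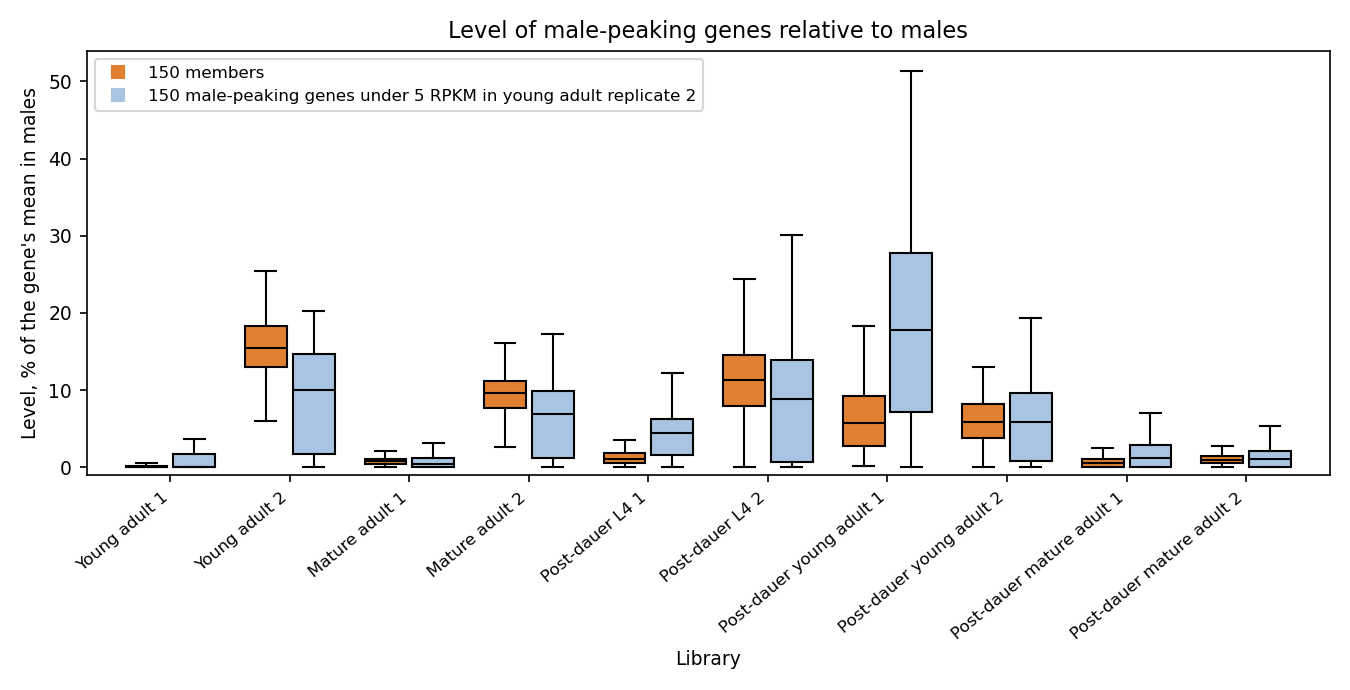
Level as a percentage of the same gene's mean in males for the 150 members (orange) and 150 male-peaking genes under 5 RPKM in young adult replicate 2 (blue) in 10 libraries; boxes span the quartiles, lines are medians, whiskers reach to 1.5 times the box and farther genes are not drawn. Members had medians of 15.4% in young adult replicate 2, 9.59% in mature adult replicate 2 and 11.3% in post-dauer L4 replicate 2, and of 0.98% or less in young and mature adult replicate 1 and post-dauer mature adults.

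The male-peaking list under the young adult floor shared the split between replicates in young and mature adults. The median difference of replicate 2 minus replicate 1 on the log2 scale was 4.26 for members and 1.62 for that list in young adults, 2.78 for members and 1.27 for that list in mature adults, and 2.65 for members and 0.38 for that list in post-dauer L4. As a share of males the median of that list was 0% and 10% in young adult replicates 1 and 2, and 0.39% and 6.90% in mature adult replicates 1 and 2. A list of adult-peaking genes differed the other way in these groups. The 150 genes that peaked in young and mature adults, averaged at least 5 RPKM in 2 to 8 cell embryos and had the largest margin over L2 to L4 were followed for this purpose. They had medians of 46.4 and 33.9 RPKM in the young adult libraries and of 50.8 and 40.4 RPKM in mature adults. This list was thus higher in replicate 1 of both groups, where members were lower than in replicate 2. In post-dauer L4 its medians were 14.0 and 21.5 RPKM. Over all genes, replicates correlated at r = 0.83 in young adults, 0.94 in mature adults, 0.87 in post-dauer L4 and 0.60 in post-dauer young adults. What set replicates 1 and 2 apart was not tested, since the labels name no batch.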

How the data were processed

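Ribosomal RNA was removed from total RNA of pooled embryos or worms before libraries were made, per the labels' protocols. Values for 14558 gene IDs in 48 libraries were deposited by the authors as RPKM in a single table; the unit was read from the values. The submitters' processing notes name HTSeq 2.0.2, StringTie 2.2.0, STAR 2.7.10 and Bowtie2 2.4.2 without saying what each did. For the genome build and gene models: not given in the sources used here. Reads shared by near-identical or overlapping genes cannot be told apart. Replicate digits of the L2, L3 and L4 columns differ from those of the labels, so these libraries have no replicate number. The largest share of identical values above 1 RPKM between any pair of libraries was 0.468%.

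The members, lists and comparisons were chosen with earlier results of these data known. Tests used limma 3.58.1 in R 4.3.3 on log2(RPKM + 1), with a variance trend and robust moderation, over genes that reached 1 RPKM in 2 or more of the 6 libraries that the rule did not use. Such fold changes understate the change of low genes. The functions were tested on simulated data. Named members were the 2 of largest margin, the 2 highest in both post-dauer young adult libraries, the 2 highest in mature adults and in 2 to 8 cell embryos, and in each test the 2 of largest change among members called or, with none called, among those whose groups did not overlap and whose higher mean was at least 10 RPKM. Alternatives were other libraries in the fit, quantile normalization, subtraction of the silent gene median, a pseudocount of 0.1, no filter, a replicate block, leaving out each library, and other cuts of the rule.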

Additional observations from a re-analysis of the deposited data

Results flagged for a closer look

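Mixed worms entered no comparison, and the members' median was above that of silent genes there. The members' median was 2.81 RPKM in mixed worms replicate 1 and 3.73 RPKM in replicate 2, against 0 RPKM in mixed embryos. Silent genes, chosen as low over all libraries, stood at 0.15 and 0.14 RPKM in the mixed worm libraries and at 0 RPKM in mixed embryos. Their 95th percentile was exceeded by 64 members in mixed worms replicate 1, against 58.1% of all genes. In replicate 2 it was exceeded by 97 members, against 56.8% of all genes. At least 5 RPKM was reached by 40 members (26.7%) and 55 members (36.7%) in the mixed worms, against 51.1% and 49.5% of all genes, and by 1 member in mixed embryos, against 45.0% of all genes. The labels do not give the stages or sexes in these mixtures.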

How the results depend on the processing

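No member was called in any of the 3 post-dauer comparisons under any alternative run. Between post-dauer L4 and post-dauer L3, limma called 0 of all genes in the main setting, 2 with 25 worm libraries in the fit, 4 with the 8 post-dauer libraries, 2 with a pseudocount of 0.1 and between 0 and 88 with each library left out, the highest without post-dauer L3 replicate 2. With the replicate number as a block it called 8 genes there and 0 in the other 2 comparisons. Same-numbered libraries deviated together, at correlations of 0.441 to 0.608 across genes between stages, but only 2 numbers are shared and no label says that they mark a batch. The members' median change in post-dauer young adults against post-dauer L3 was 3.71 with a pseudocount of 0.1, and for post-dauer L4 over post-dauer L3 it was 3.06. With 25 worm libraries less replicate 1 of the 3 stages it was 3.99 for post-dauer L4 over post-dauer L3, 3.23 for post-dauer young adults over post-dauer L3 and -0.84 for post-dauer young adults over post-dauer L4, where the lone libraries are assumed to vary like the other groups. With each male library alone the rule kept 144 and 142 of the 150 members, and 142 after quantile normalization. The 2 libraries per group and the unknown depth limit every value.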

Other observations

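Members were unevenly spread over the gene IDs. Of the 150 members, 1 had a number of 12001 or above, 0.67% of members, whereas 2558 of all 14558 genes did, which is 17.6%. Among the 744 genes that met every floor of the rule the share was 5.51%, and among the 4100 genes with at least 20 RPKM in both male libraries it was 8.80%. The densest stretch was 6001 to 7000, with 21 members among 1000 genes. These stretches were chosen after the values were seen, no chromosome or coordinate was used here, and whether ID numbers follow the genome was not tested. Only 5 pairs of members had consecutive numbers.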
